A study of Mus musculus with 8 samples.

Results

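The genes described here encode the proteins of the cytosolic ribosome. Their transcripts were measured on 8 Affymetrix arrays of embryonic stem cells from mouse. A gene was included when a probe set with 1 gene symbol carried a symbol made of Rpl or Rps and a number, or Rplp0, Rplp1, Rplp2 or Rpsa. The Rps6k kinases, Rpl7l1, Rpl22l1, Rps19bp1 and pseudogene symbols were left out. This gave 47 of the 18193 genes that had such a probe set, 24 of the large subunit and 23 of the small subunit. They had 101 probe sets, and 23 of them had 2 or more. Each gene is given by its probe set of highest mean log2 signal over the 8 arrays. Another 31 genes of the same name pattern, Rplp1, Rpl5 and Rpl10 among them, were found only on probe sets of several symbols and carry no value of their own.

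The 4 groups had 2 arrays each. They were cells carrying a Rex-1 knockout by their labels, without LIF and with LIF, and J1 wild-type cells without LIF and with LIF. Rex-1 is a zinc finger protein, the product of Zfp42, and LIF is the cytokine that keeps mouse embryonic stem cells undifferentiated, and the cultures were monolayers on gelatin. An extraction text shared by all 8 arrays gives 12 hours of culture lacking LIF, and the growth text of the knockout-labelled arrays without LIF mentions added LIF. Titles and treatment text, which put LIF as absent there, were followed. Of the arrays of each group 1 carries the letter r in its title, and it is called the second array here. The design text describes both arrays as biological replicates, and nothing says what r marks, so the p-values reflect how far these 8 arrays spread. Zfp42 itself gave 16729 to 17997 signal units in the 4 knockout-labelled arrays, against 18217 to 23255 in the 4 J1 arrays. The labels do not say where the probes lie relative to the deletion. Every direction below is therefore between arrays labelled knockout and arrays labelled J1. The 8 embryonic stem cell markers listed were all measured, and their summed signal ran from 83890 to 104700 in knockout-labelled arrays and from 86280 to 115600 in J1 arrays.

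Cytosolic ribosomes translate the messenger RNAs of the cell. The small subunit decodes the message, and the large subunit forms the peptide bonds. Ribosomal protein messages are among the most abundant in growing cells. They begin with a pyrimidine tract, the 5′ TOP, through which their translation follows growth signals. Several members have close paralogs or many processed pseudogenes, and a paralog can take the place of its relative in particular tissues. In bulk samples, fewer cells of a type and less RNA per cell cannot be told apart.

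The promoter windows are shown because 2 motifs were more frequent at the members' start sites than at all start sites, a feature that the choice by name did not use. RefSeq gave windows on the mouse build GRCm38.p6 for 41 of the 47 genes. Rpl7, Rpl8, Rps14, Rps20, Rps29 and Rps4l are named only. The 60 bases below run from 30 before the start to 29 after it. Capitals mark CTTTC, a pyrimidine run of the TOP type searched on the sense strand from base -20 to base 49, and CCGGAAG, an ETS-type motif searched on both strands from base -250 to base 49.
Rpl39l, chr16:10170198-10170257, plus strand: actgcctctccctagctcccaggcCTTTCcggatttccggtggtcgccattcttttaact
Rpl39, chrX:37085193-37085252, minus strand: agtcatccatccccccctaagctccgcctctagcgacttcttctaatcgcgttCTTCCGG
Rplp2, chr7:141447621-141447680, plus strand: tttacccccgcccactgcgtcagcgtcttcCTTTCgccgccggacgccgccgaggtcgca
Rpl38, chr11:114668550-114668609, plus strand: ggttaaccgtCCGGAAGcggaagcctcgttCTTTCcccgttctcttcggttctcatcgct
Rps10, chr17:27635215-27635274, minus strand: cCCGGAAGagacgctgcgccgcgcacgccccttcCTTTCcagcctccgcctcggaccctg
Rps27, chr3:90213619-90213678, minus strand: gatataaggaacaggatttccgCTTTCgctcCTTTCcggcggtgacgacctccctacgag
CTTTC stood in 40.8% of the 49 windows of these genes, over 19 genes, and in 8.97% of all 32851 windows. CCGGAAG stood in 42.9% of the member windows, over 21 genes, and in 8.86% of all windows. The longer letters AANATGGC, of the YY1 type and searched like CCGGAAG, stood in 12.2% of member windows, over 5 genes, and in 6.05% of all. The short GCCAT, which overlaps AANATGGC on the other strand, was common everywhere, at 51.0% and 40.5%. Some members, such as Rplp0, Rps3, Rpl27 and Rpl37a, had neither CTTTC nor CCGGAAG in these windows, while the 6 windows printed each carry 1 or both. The motifs were chosen after the windows had been seen, and a match is a description of letters.

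Most members lay at the top of the array. The mean log2 signal was at least 14 in 34 genes, and these all ranked within the first 220 of 45037 probe sets. Their signals ran from 15383 to 48649 units. The 3 brightest, Rps29, Rps3a1 and Rps20, are proteins of the small subunit and had mean log2 signals of 15.07, 14.99 and 14.97. Between 20 and 25 members stood among the 100 brightest probe sets of each array, and the members together held 2.40% to 3.43% of the summed signal. Levels of different probe sets are not compared as amounts of RNA. Of the 47 probe sets, 14 have the suffix x and 2 the suffix s, which mark probes that can match other genes, so paralogs and pseudogenes may share these signals. Another 16 have the suffix a, for transcripts of the same gene.

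The other 13 genes were dimmer. Rpl37, Rpl39l, Rps27l and Rps4l had mean log2 signals from 12 to 14. Rpl12, Rpl14, Rpl27a, Rpl39, Rps25, Rps27 and Rps6 lay from 8 to 12. Rpl3l, a paralog of Rpl3 known from muscle, lay at 5.88. Rps16 lay at 2.47 and did not pass the low-value filter, a log2 signal of at least 4 in at least 2 arrays, which left 46 members for the tests. Some of these positions belong to the probe set, since several genes have further, brighter probe sets that carry several symbols.

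The 34 brightest genes moved together from array to array. The second J1 array with LIF was the highest of the 8 for all 34. The first knockout-labelled array without LIF was the lowest for 31 of them, and the first J1 array with LIF for the other 3. Rplp0, which anchors the acidic stalk where translation factors bind, shows the pattern. It had 18258 and 23258 signal units without LIF and 22356 and 26236 with LIF in knockout-labelled arrays, first and second array in turn. The J1 arrays gave 21363 and 26380 without LIF and 19674 and 32876 with LIF. The second array was the higher in each group, and the groups overlapped.

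**Figure D1:**
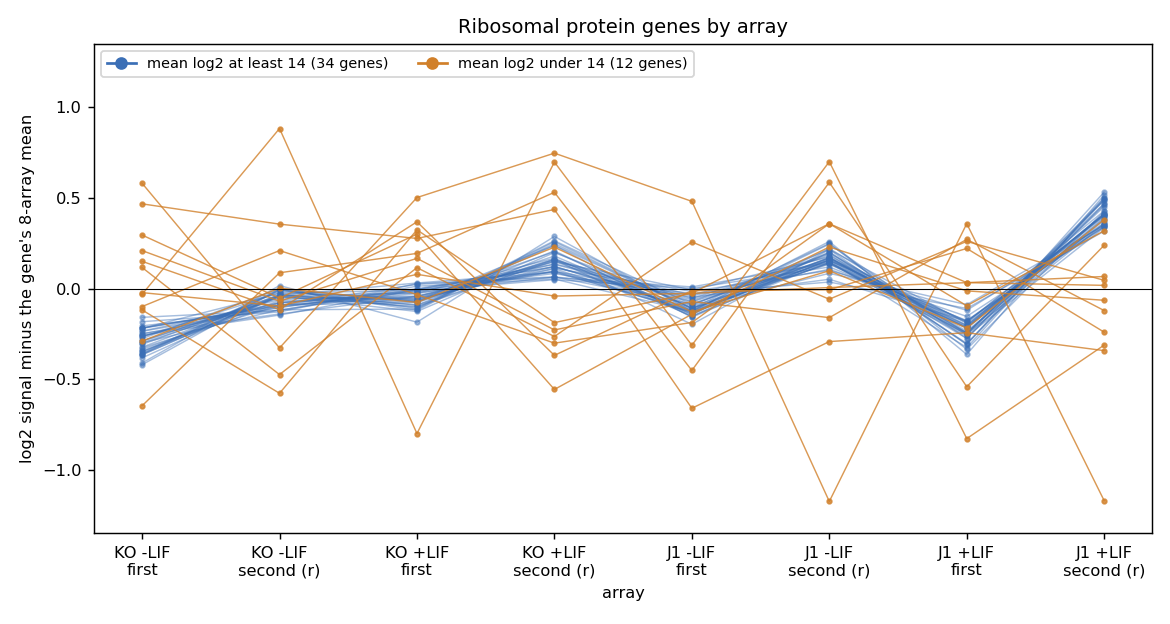
Log2 signal of 46 ribosomal protein genes in each of the 8 arrays, minus the gene's own mean over the 8 arrays. Each line is 1 gene, blue for the 34 genes of mean log2 of at least 14 and orange for the 12 others. The blue lines run close together, lowest in the first knockout-labelled array without LIF, with a median of -0.290, and highest in the second array of J1 cells with LIF, whose median is 0.410.

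For these 34 genes, the range over the 8 arrays was 0.50 to 0.93 log2 units with a median of 0.69. The median range was 0.42 over 1442 probe sets of other genes with mean log2 of at least 12. Of these 1442, 951 lay from 12 to 13 and 401 from 13 to 14. Both bands are dimmer than all 34 genes, so the 2 ranges are not matched for level. Rps2, of the small subunit, had the widest range of the 34, and Rps15, also of the small subunit, the narrowest.

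Knockout-labelled cells were compared with J1 cells. limma with Benjamini-Hochberg adjustment over all 43439 probe sets called 0 members at an adjusted p under 0.05, and 0.0% of all probe sets, in the comparison averaged over LIF. At an unadjusted p under 0.05 it was 1 member, Rpl39l, against 5.27% of all probe sets. The 46 members had a median difference of -0.12 log2 units, knockout-labelled minus J1, with 6 higher and 40 lower. The median of all probe sets was 0.02. Across the large subunit genes the median was -0.13, and across the small subunit genes -0.11.

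The 34 brightest members were all lower, by -0.08 to -0.17 with a median of -0.13. The 90 probe sets of other genes with mean log2 of at least 14 had a median of -0.09, with 81 lower, and the 1442 of at least 12 a median of -0.02, with 605 higher and 837 lower. The smallest adjusted p among the 34 members was 0.994. The arrays did not agree on the direction: the members' median was 0.01 between first arrays and -0.24 between second arrays. Leaving out the second J1 array with LIF turned the median to 0.04, with 33 members higher and 13 lower. Marker sums differed between the labels in first arrays. The fibroblast sum was 8076 and 10480 in knockout-labelled first arrays against 20050 and 22840 in J1 first arrays. The trophoblast sum was 3790 and 3812 against 13860 and 14440. Averaged over LIF in first arrays, 1 of the 10 fibroblast markers was higher in knockout-labelled cells and 9 were lower. Of the 7 trophoblast markers, 4 were higher and 3 lower, so that sum does not speak for its list. In second arrays the fibroblast sum was 4652 and 6558 against 4058 and 6165, and the trophoblast sum 1733 and 1775 against 1480 and 1499. Their part in the result was not tested. Quantile normalization, which gives all arrays 1 distribution, brought the members' median to -0.000449, with 23 higher and 23 lower. Most members lie in the top ranks, which this step sets to the same values on all arrays. It therefore removes a shift shared by those ranks, and how far this set the median was not tested.

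Rpl39l had the highest averaged difference of the 46 members. It is a paralog of Rpl39, a small protein at the exit tunnel of the large subunit, and is known from the testis. Its signal was 6297 and 5828 units without LIF and 5518 and 6164 with LIF in knockout-labelled arrays. In J1 arrays it was 2883 and 3721 without LIF and 3850 and 3592 with LIF. All 4 knockout-labelled arrays lay above all 4 J1 arrays, at 5952 ± 350.1 against 3511 ± 431.9 units (SD, n = 4 arrays each). The difference averaged over LIF was 0.77 log2 units, SE 0.17, a fold of 1.70, with an adjusted p of 0.736 in limma with Benjamini-Hochberg adjustment. It was the single member of the 46 whose arrays did not overlap in this comparison, and 1 of 46 is near the 2.10% of all probe sets that were higher without overlap, with 1.74% lower.

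The difference was 0.65 with LIF and 0.89 without LIF, each with SE 0.24, and adjusted p in limma of 0.957 and 1.0. Leaving out any 1 array gave 0.68 to 0.86 for the averaged difference. It kept its direction in every setting tried, and its adjusted p in those settings lay between 0.0782 and 1.0. Every knockout-labelled array lay above every J1 array, so leaving out 1 array could not turn the sign. Settings that changed only the test left the difference as it was. LIF moved Rpl39l little, with a difference of -0.06 (SE 0.17, adjusted p in limma 1.0), minus LIF against plus LIF. Rpl39l had 1 single-symbol probe set, so no other single-symbol probe set measured it. Its promoter window above carries CTTTC upstream of the start.

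Its relative Rpl39 gave 679.8 and 494.2 units without LIF and 923.5 and 647.7 with LIF in knockout-labelled arrays. J1 arrays gave 724.4 and 945.5 without LIF and 690.6 and 920.6 with LIF. The groups overlapped. Rpl39 had the lowest averaged difference of all members, -0.28 (SE 0.24, adjusted p in limma 0.987). Rps27, a zinc-binding protein of the small subunit, was second to Rpl39l among the higher members, at 0.75 (SE 0.53, adjusted p in limma 0.985). It gave 812.2 and 432.5 units without LIF and 769.0 and 911.3 with LIF in knockout-labelled arrays, against 757.8 and 240.5 without LIF and 696.3 and 241.2 with LIF in J1 arrays. Both second J1 arrays were far below the first, and the groups overlapped.

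Rps27l, the paralog of Rps27 that is a p53 target in human cells, was the most even member. It gave 15545 and 14769 units without LIF and 16675 and 15338 with LIF in knockout-labelled arrays, and 15496 and 15845 without LIF and 16143 and 16528 with LIF in J1 arrays. Its range was 0.175 log2 units, and its averaged difference was -0.04 (SE 0.15, adjusted p in limma 0.999). Its 3 probe sets gave -0.04, -0.09 and -0.07.

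**Figure D2:**
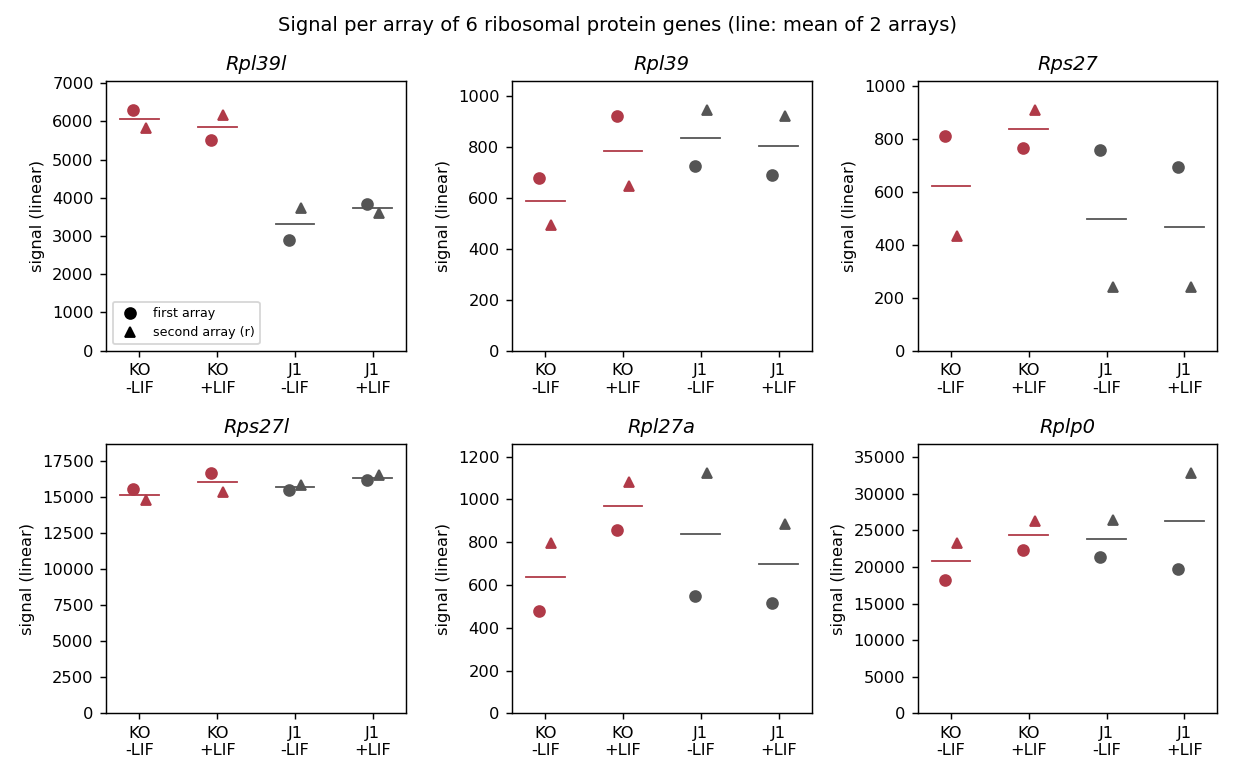
Linear signal of 6 ribosomal protein genes in each array, with circles for first arrays, triangles for second arrays and a line at the mean of 2 arrays; red marks knockout-labelled and grey J1 arrays. Rpl39l is higher in every knockout-labelled array, with 5518 to 6297 units against 2883 to 3850, while the other 5 genes overlap between knockout-labelled and J1 arrays.

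With LIF, limma called 0 members and 0.0% of all probe sets, and at an unadjusted p under 0.05 it was 1 member, Rpl39l, against 5.02% of all. The members' median difference was -0.04, with 8 higher and 38 lower. The 90 probe sets of other genes with mean log2 of at least 14 had a median of -0.0177, with 38 higher and 52 lower. Arrays did not overlap for 2 members higher, Rpl39l and Rps27, and 1 lower, Rps6, a target of growth-factor kinases in the small subunit, against 15.5% higher and 14.5% lower among all probe sets. First arrays gave a median of 0.18 and second arrays -0.25. The median was 0.27, with 40 members higher, when the second J1 array was left out, and -0.33, with 40 lower, when the first was left out.

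Without LIF, limma again called 0 members and 0.0% of all probe sets, and at an unadjusted p under 0.05 only Rpl39l of the members, against 3.68% of all. The median difference was -0.20, with 6 higher and 40 lower. The direction was shared by first arrays, -0.17, and second arrays, -0.22. All 34 brightest members were lower, between -0.29 and -0.12, with a median of -0.209. The 90 probe sets of other genes with mean log2 of at least 14 had a median of -0.166, with 2 higher and 88 lower. Arrays did not overlap for 13 members lower, against 13.4% of all probe sets lower, and for 2 higher, Rpl39l and Rpl37, against 15.9% higher. Among the 1442 bright probe sets of other genes the shares were 18.1% lower and 6.31% higher. These shares are not matched for level. Of the 13 lower members, 12 had a mean log2 of at least 14, while 951 of the 1442 lay from 12 to 13 and 401 from 13 to 14.

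LIF withdrawal was compared within each genotype and over both. Socs3, a direct target of LIF signalling, differed by -2.99 log2 units (SE 0.47, adjusted p in limma 0.701), minus LIF against plus LIF. Averaged over genotype, limma called 0 members and 0.0% of probe sets, and at an unadjusted p under 0.05 it was 0 members against 4.02%. The members' median difference was -0.14, with 4 higher and 42 lower. The 34 brightest lay between -0.18 and -0.08. The 90 other bright probe sets had a median of -0.12, with 89 lower. No member's arrays were free of overlap in this comparison, against 1.02% of all probe sets higher and 1.33% lower.

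In knockout-labelled cells the median was -0.22, with 6 higher and 40 lower, and limma called 0 members and 0.0% of probe sets, or 0 members and 4.07% at an unadjusted p under 0.05. First arrays gave -0.22 and second arrays -0.20. All arrays were lower without LIF for 20 members, against 14.1% of all probe sets lower and 13.5% higher. Of the 1442 bright ones of other genes, 22.4% were lower in this way. This share is not matched for level. Of the 20 members, 19 had a mean log2 of at least 14, while 951 of the 1442 lay from 12 to 13 and 401 from 13 to 14. The 34 brightest members had a median of -0.231. The 90 probe sets of other genes with mean log2 of at least 14 had a median of -0.194, with 0 higher and 90 lower. In J1 cells the members' median was -0.06, with 11 higher and 35 lower. The same 90 probe sets had a median of -0.0384 in J1 cells, with 16 higher and 74 lower. There limma called 0 members and 0.0% of probe sets, or 0 members and 3.61% at an unadjusted p under 0.05. First arrays gave 0.11 and second arrays -0.24. Arrays did not overlap for 1 member, Rps27l, which was lower without LIF, against 14.4% of all probe sets lower and 13.2% higher.

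The difference between the LIF responses, knockout-labelled minus J1, had a median of -0.15 with 5 higher and 41 lower. limma called 0 members and 0.0% of all probe sets for it, or 0 members and 3.55% at an unadjusted p under 0.05. First arrays gave -0.36 and second arrays 0.03. For this difference the 90 probe sets of other genes with mean log2 of at least 14 had a median of -0.154, with 7 higher and 83 lower. Rps18, of the small subunit head, and Rps3, at the entry of the message channel, were among the 5 lowest members of the averaged LIF comparison, at -0.18 each, SE 0.23 and 0.21. Rpl12, of the stalk base, Rps6 and Rps25 were among the 5 highest, at 0.17, 0.14 and 0.01, with SE of 0.25, 0.20 and 0.24, and adjusted p in limma of 1.0 for all. The highest member tested was Rpl3l at 0.62 and the lowest Rps27 at -0.22, both dim, with mean log2 signals of 5.88 and 9.08.

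Second arrays were also compared with first arrays over all 4 groups. The 46 members had a median of 0.30 log2 units, second minus first, with 39 higher and 7 lower. The median over all probe sets was 0.08. limma called 0 members and 0.0% of probe sets at an adjusted p under 0.05, and 14 members and 14.5% of probe sets at an unadjusted p under 0.05. The second array was higher in all 4 groups for 37 members, against 16.7% of all probe sets and 34.6% of the 1442 bright ones of other genes. These were the 34 brightest, Rps4l, Rpl27a and Rpl3l. It was lower in all 4 groups for Rpl14 and Rpl37, against 11.2% of all probe sets. Of the 1442, 951 had a mean log2 from 12 to 13 and 401 from 13 to 14, dimmer than the 34 brightest members. The 90 probe sets of other genes with mean log2 of at least 14 had a median of 0.264, with 88 higher and 2 lower on average over the groups.

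By group, the members' medians were 0.22 in knockout-labelled cells without LIF, 0.17 in knockout-labelled cells with LIF, 0.27 in J1 cells without LIF and 0.61 in J1 cells with LIF. Rps2, at the entry of the message channel, gave 28125, 33940, 33295 and 39784 units in the second arrays, against 20920, 24466, 25513 and 21613 units in the first arrays. Each list runs over knockout-labelled cells without and with LIF and J1 cells without and with LIF. Its second arrays were all higher than its first arrays, by 0.54 on average (SE 0.15, adjusted p in limma 0.296). Rpl27a, of the large subunit, differed by 0.72 (SE 0.17, adjusted p in limma 0.294), at 478.7 to 1125 units over the 8 arrays. Rps27 went the other way, at -0.96 (SE 0.38, adjusted p in limma 0.355).

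The size of the difference went with signal. Among single-symbol probe sets of other genes, the median second-minus-first difference was -0.03 in the band of mean log2 from 9 to 10, 0.03 in the band from 12 to 13, 0.23 in that from 14 to 14.5, and 0.34 in the brightest band, above 14.5. The bright ribosomal genes had a median of 0.33, and the 12 dimmer members -0.04. The spiked hybridisation controls had mean log2 signals of 11.51, 11.93, 12.15 and 12.54 in second arrays, against 11.53, 11.58, 11.58 and 11.70 in first arrays, for knockout-labelled cells without and with LIF and J1 cells without and with LIF. They were higher in the second array in 3 of 4 groups, and not in knockout-labelled cells without LIF, where the 34 brightest members had a median of 0.24. The summed signal of 10 fibroblast markers, most of it from Vim, Acta2 and Tagln, was 4058 to 6558 in second arrays and 8076 to 22840 in first arrays, and on average 3 of the 10, Thy1, Lum and Dcn, were higher in second arrays. That of 7 trophoblast markers was 1480 to 1775 in second arrays and 3790 to 14440 in first arrays, mostly from Krt8 and Krt18, and 1 of the 7, Plac1, was higher in second arrays. No marker of these lists was at 0. Their part in the result was not tested.

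**Figure D3:**
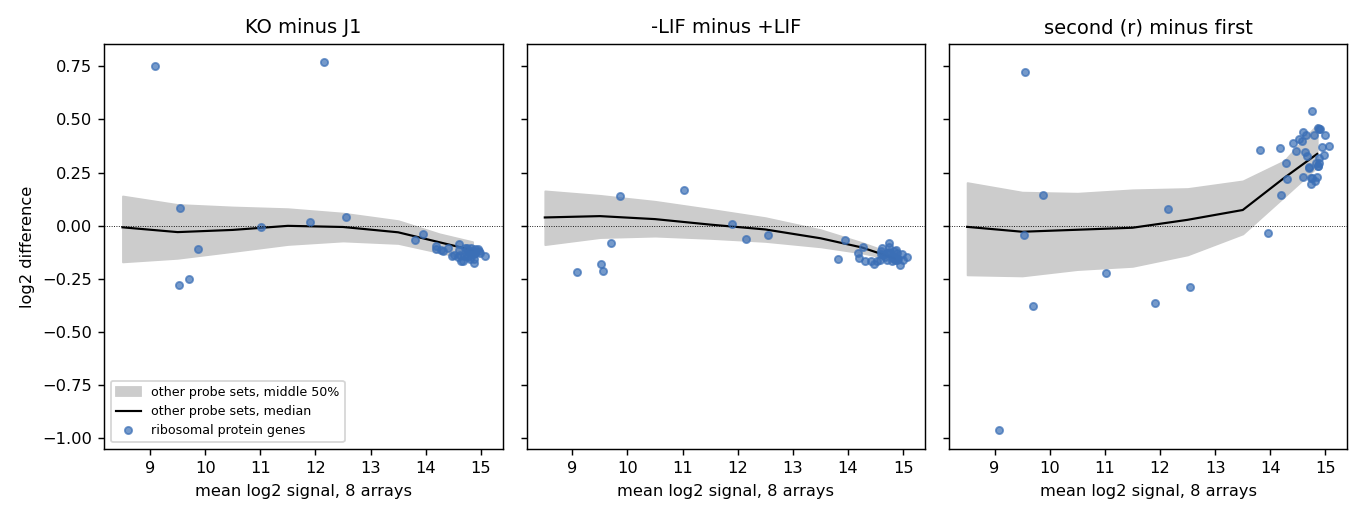
Log2 difference of ribosomal protein genes against their mean log2 signal, for knockout-labelled minus J1, minus LIF against plus LIF, and second minus first arrays; the black line is the median and the grey band the middle 50% of other genes' probe sets in bins of level. Most bright points lie close to the black line, which bends away from 0 above a mean log2 of about 14. In the first panel Rpl39l, at 12.15, and Rps27, at 9.08, stand above the line, with differences of 0.768 and 0.752.

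Of the 100 member probe sets tested, 71 had a mean log2 of at least 12, and 69 of these were lower in knockout-labelled arrays and 65 higher in second arrays. Among 19 genes with 2 or more probe sets of mean log2 of at least 8, the sign of the genotype difference was shared by all probe sets in 18, that of the LIF difference in 13 and that of the second-minus-first difference in 13. The 15 probe sets of mean log2 from 8 to 12 had medians of -0.107 for genotype, 0.0239 for LIF and -0.0432 for second minus first, against -0.132, -0.132 and 0.295 for those of at least 12. The 82 bright probe sets of several symbols that hold a ribosomal protein symbol had medians of -0.12 for genotype, with 82 lower, -0.14 for LIF, with 82 lower, and 0.29 for second minus first. They were named by no gene.

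Rpsa, also known as a laminin receptor, differed by -0.14 between genotypes (SE 0.22). Rps19 and Rpl11, mutated in Diamond-Blackfan anaemia in humans, differed by -0.12 (SE 0.18) and -0.10 (SE 0.23), and Rpl38, which affects Hox messages in mouse embryos, by -0.16 (SE 0.21). The adjusted p in limma was 0.994 for all 4. Rpl10a, Rplp2 and Rps14 gave -0.11, -0.13 and -0.12. Rps4l, a paralog of Rps4x, gave -0.07 (SE 0.22, adjusted p in limma 0.998).

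Related lists were read beside the members by count and median. Of 14 other genes with 5′ TOP messages, 2 were higher and 12 lower in knockout-labelled arrays, with a median of -0.07, and 0 of 14 were higher without LIF, with a median of -0.08. The translation elongation factor Eef1a1, as bright as the members, gave -0.17, -0.15 and 0.54 for genotype, LIF and second minus first, and the dimmer Eef2 gave -0.11, -0.05 and -0.09. Of 35 ribosome biogenesis genes, 12 were higher and 23 lower by genotype, with a median of -0.05. Npm1, a nucleolar chaperone, gave -0.16, -0.16 and 0.45. The 76 mitochondrial ribosomal protein genes, whose ribosome is a separate particle, had a median of 0.02 by genotype, with 42 higher and 34 lower, and -0.07 by LIF, with 13 higher and 63 lower. limma called 0 genes of these lists in each of the 3 comparisons.

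Outside the ribosome, the single-symbol probe sets whose values over the 8 arrays were most like the members' median were those of Hnrnpab, Mcm5 and Npm1. Pearson's r was 0.996, 0.995 and 0.994 among 14707 probe sets. These share the arrays and their brightness with the members, at mean log2 signals of 14.46, 13.91 and 14.87, and no p is given.

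**Figure D4:**
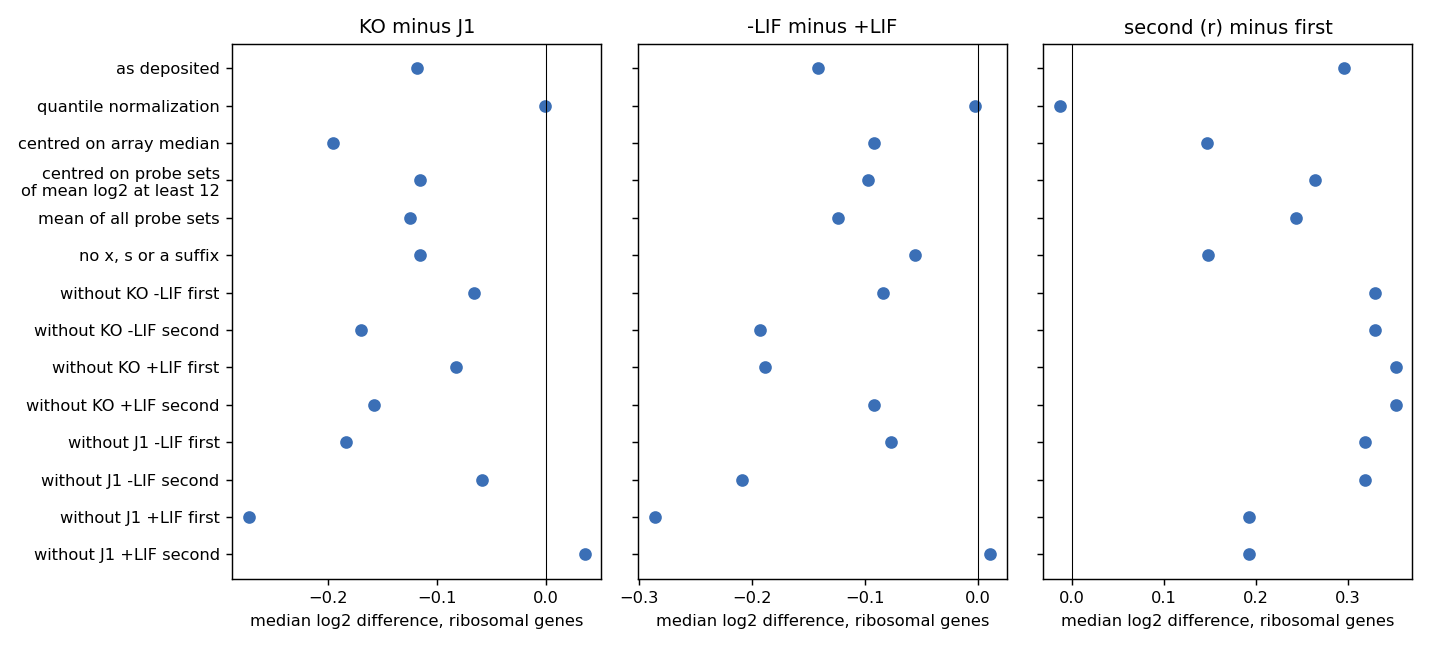
Median log2 difference of the ribosomal protein genes under each setting, for knockout-labelled minus J1, minus LIF against plus LIF, and second minus first arrays; each point is 1 setting. Quantile normalization puts all 3 medians near 0, at -0.000449, -0.00265 and -0.0126. It gives the top ranks of all arrays the same values, and most members lie there. The step therefore removes a shift shared by those ranks, and how far this set the medians was not tested. Leaving out the second J1 array with LIF turns the first 2 medians to 0.0357 and 0.011.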

How the data were processed

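The authors deposited 1 signal intensity for each probe set, on a linear scale, and the submitters' processing notes name GCRMA without version or role. Each column had a trimmed mean of 500 (2% trimmed at either end), and no log had been taken, so the step that made the values is not known. No detection values were used, and the number of arrays limits the precision. No build is named for the arrays; symbols are those of the platform annotation.

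The 64 control probe sets were left out. Intensity was taken to log2 without a pseudocount, and 43439 of 45037 probe sets passed the filter. The model, in limma 3.58.1 (R 4.3.3), had a mean for each group, and for the second-against-first comparison with a term for the letter r. Calls are at a Benjamini-Hochberg adjusted p under 0.05 over all probe sets. The fit was tried on simulated data with independent errors for each array. These held no shift shared by bright probe sets, so the trial does not cover such a shift. Figures used matplotlib 3.10.9.

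Between groups, the differences of second from first arrays had correlations of 0.0497 to 0.198 over all 43439 probe sets. Of the 6 pairs of groups 2 lay under 0.1, and r was not taken as a pairing. These correlations do not speak for bright probe sets: the second array was higher in all 4 groups for all 34 brightest members. Without a term for r, that shift stays in the spread used by the group tests.

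Members and lists were chosen with earlier results of these data known. Named members were the 5 highest and 5 lowest in the averaged genotype, averaged LIF and second-against-first comparisons, the 5 of widest and narrowest range, the 3 brightest and dimmest, and a fixed list of paralogs and well-known members; the text describes most of these, and Rps10 was shown for its promoter after its sequence was seen. Alternatives covered filter, pseudocount, normalization, probe set choice, variance prior, threshold, arrays in the fit, the letter r as a block, and each array left out in turn.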

Additional observations from a re-analysis of the deposited data

How the results depend on the processing

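limma called 0 members in all 8 comparisons, and in every setting except 2, both for second against first arrays: 6 members with a floor of mean log2 of at least 8 (Rpl6, Rpl11, Rps3a1, Rps2, Rpl27a and Rpl41, with 1837 of 14892 probe sets called) and 21 members with a trended robust variance prior (1966 of 43439 called). The cause was not tested. The replicate block by the letter r gave 0 members called in each of the 7 comparisons it was fitted for, and with it the Rpl39l difference kept 0.768 with an adjusted p of 0.591. With the floor and the block together, a setting chosen after seeing the data, that adjusted p was 0.0782. The members' median between second and first arrays was -0.0126 after quantile normalization. Leaving out 1 array at a time, the median ran from -0.333 to 0.268 for genotype with LIF, from -0.315 to -0.0701 without LIF, from -0.272 to 0.0357 averaged, from -0.35 to 0.24 for LIF in J1 cells, from -0.31 to -0.112 in knockout-labelled cells, from -0.286 to 0.011 averaged, from -0.477 to 0.148 for the difference between the LIF responses, and from 0.193 to 0.352 for second against first arrays. The end values with LIF, in J1 cells and for the difference between responses come from leaving out the first or the second J1 array with LIF. Centring on each array's median moved the averaged genotype median to -0.195, with 4 members higher and 42 lower, and the averaged LIF median to -0.0918. Probe sets without x, s or a suffix left 24 members, with medians of -0.115, -0.0556 and 0.148 for genotype, LIF and second against first arrays. Bright probe sets of other genes were first taken as all 212 probe sets of mean log2 of at least 14 outside the member probe sets, with medians of -0.115 for genotype, -0.132 for LIF and 0.296 for second against first arrays. Because these held ribosomal probe sets of several symbols, they were replaced, after seeing the data, by 90 single-symbol probe sets of other genes, with -0.0891, -0.12 and 0.264. With 2 arrays a group, the number of arrays limits the precision.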
